A study of Mus musculus with 4 samples.

Results

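Microglia are the resident macrophages of the brain, and the 35 genes described here are widely used markers of them and of related myeloid cells. They were measured in 4 RNA-seq libraries of mouse hippocampal neuron cultures, 1 library for each of 4 conditions. The set was chosen by gene symbol: all deposited rows carrying a listed symbol, with FPKM (mapped fragments scaled to transcript length and library size) summed per symbol and an FPKM of at least 1 in at least 1 of the 4 libraries. Of the 35 symbols, 34 were among the rows and 26 reached that level, out of 13458 genes that did so among 21719 kept. The question was how these markers differ between the 4 conditions, and whether they differ together or apart.

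The cultures were hippocampal neurons dissociated from CD1 mouse pups at postnatal day 0 and grown for 11 days in Neurobasal medium with B27. A lentivirus was added on day 4, either one carrying a hairpin RNA (shRNA) against Kdm6b, a demethylase of lysine 27 of histone H3, or the empty pLKO.1 vector. On day 11, cultures of each kind either received bicuculline and 4-aminopyridine (Bic/4AP), which block inhibitory GABA-A receptors and potassium channels and so raise network firing, or were left untreated. The 4 conditions are therefore hairpin with Bic/4AP, hairpin untreated, vector with Bic/4AP and vector untreated; bicuculline was given at 50 (the unit is written µm in the labels) and 4-aminopyridine at 2.5 mM, for 3 h. All 4 were infected, all came from whole cultures with no cell sorting named in the labels, and 1 hairpin was used, so an effect of this hairpin other than through Kdm6b cannot be told apart from an effect of Kdm6b.

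With 1 library per condition there is no spread between replicates and no test of a condition. Differences are given in log2(FPKM + 1), where a difference of 1 or more is called 2-fold. Ratios of FPKM are given without that added 1, because most of these genes are at low levels where it shrinks a difference. The lower and upper bounds that the authors deposited with each FPKM are used to say whether 2 libraries' ranges overlap; they reflect counting within a library, not variation between cultures. Read as 2 Poisson standard deviations, the bounds imply, for example, 196 and 203 fragments for C1qa in the hairpin cultures with and without Bic/4AP, against 518 and 594 in the vector cultures with and without it. For 19 or 20 of the 26 members in a library such numbers came out whole within 0.05. Kdm6b itself, on chromosome 11, had 4.83 FPKM in the hairpin culture with Bic/4AP against 13.1 in the vector culture with Bic/4AP, a ratio of 0.368. Untreated, it had 2.73 FPKM with the hairpin against 6.74 with the vector, a ratio of 0.406.

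Microglia enter the brain early in development and are kept alive there through the receptor encoded by Csf1r. They clear debris and synapses with the help of complement: the 3 C1q chains, encoded by C1qa, C1qb and C1qc, start the classical complement pathway and are made in the brain mainly by microglia. Many of their surface receptors carry no signalling tail of their own and signal through the adaptor DAP12 (Tyrobp) or the Fc receptor gamma chain (Fcer1g). The identity of the lineage depends on the transcription factor PU.1, encoded by Spi1, which binds purine-rich sites with the core GAGGAA. Primary neuron cultures usually hold some glial cells, microglia among them.

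Because the C1q chains, cathepsin S and several receptors stood lower together, the short promoter windows of the members were searched for the PU.1 core word, GAGGAA, or TTCCTC on the other strand. The sequences are those of RefSeq on GRCm38.p6, from 250 bases before to 50 after each annotated start, and the word was chosen after the values were seen. A window was found for 23 of the 35 members, and 16 of these 23 (69.6%) held the word, against 31.3% of 27025 genes with a window and 29.9% of 9456 compared genes with one. The following stretches run 5′ to 3′ on the gene's strand with the word in capitals. The first 6 are shown because these members were lower with the hairpin, and the last 2, from Aif1 and Hpgds, because the bounds of Aif1 overlapped in both states and Hpgds was higher with the hairpin. They lie at chr4:136893090-136893119 (C1qc, minus strand), chr4:136886213-136886242 (C1qb, minus), chr17:48346349-48346378 (Trem2, plus), chr1:171059392-171059421 (Fcgr3, minus), chr3:95526774-95526803 (Ctss, plus), chr4:130913266-130913295 (Laptm5, plus), chr17:35176042-35176071 (Aif1, minus) and chr6:65144762-65144791 (Hpgds, minus).
C1qc: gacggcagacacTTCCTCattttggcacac
C1qb: gcagcaggatggGAGGAAcagaggggtgat
Trem2: agcctcctttccTTCCTCcctccctcacgc
Fcgr3: gagtccatttccTTCCTCtttttgtagttc
Ctss: atgaaagttcacTTCCTCattgtggatgct
Laptm5: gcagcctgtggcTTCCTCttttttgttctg
Aif1: ataggcacccagTTCCTCcatcctattgtt
Hpgds: ggcttttaggtgGAGGAAgtggcctctggc

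Members with and without the word were lower. Of the 13 members that passed the level of 1 and held the word, 10 had a lower value with the hairpin in both states. Of all genes compared, 31.8% did. Of the 6 members that passed and had a window without the word, 5 did, namely Lyz2, Mpeg1, Ly86, Fcer1g and Cx3cr1, with P2ry12 the exception. Itgam, Cd53 and Apbb1ip among the 10, and Ly86 and Cx3cr1 among the 5, reached that level only in vector libraries. The filter on that level thus fixed their direction in at least 1 state. Hpgds, which held the word, reached the level only in a hairpin library. A match of 6 letters is a description of the window and not a binding site. No window was found for Tyrobp, C1qa, Csf1r and 9 further members.

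As a set, the markers were lower in the hairpin cultures than in the vector cultures, in both states. Among all 34 measured members, 30 were lower with the hairpin untreated and 29 with Bic/4AP, and 28 were lower in both. Among the 26 that reached an FPKM of 1, 23 were lower untreated, 23 with Bic/4AP and 22 in both. Of the 13458 genes compared, which all reached that level, 41.2% were lower untreated, 43.6% with Bic/4AP and 31.8% in both. The summed FPKM of the 34 members was 107.5 in the hairpin culture with Bic/4AP and 77.8 in the untreated hairpin culture, against 227.8 in the vector culture with Bic/4AP and 170.4 in the untreated vector culture. The sum with the hairpin was thus 0.472 of the vector sum with Bic/4AP and 0.457 untreated. Lyz2 and Cd14 make up much of these sums; without them the sums were 48.4 and 45.9 in the hairpin cultures with and without Bic/4AP, against 91.9 and 87.9 in the vector cultures with and without it. In bulk RNA, fewer microglia in a culture and less of these transcripts per microglial cell cannot be told apart.

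The filter bears on these counts. Of the 26 members that reached an FPKM of 1, 8 did so only in vector libraries and 1, Hpgds, only in a hairpin library. The 8 were Itgam, Itgb2, Cd53, Cd52, Emr1, Ly86, Cx3cr1 and Apbb1ip. In a state where such a member reached 1, the filter fixed its direction. Cd52, Emr1 and Ly86 reached 1 in both states, and the others in a single state, so their other state was free. The 15 members at 1 or more in all 4 libraries entered without such a fixed direction. For them the median ratio of hairpin to vector was 0.433 with Bic/4AP, within a range of 0.320 to 1.12, and 0.553 untreated, within 0.271 to 1.31. The median over the 12650 genes at 1 or more in all 4 libraries was 1.02 with Bic/4AP and 1.04 untreated. Just above the level of 1 were Cyth4, with a highest value of 1.02, and Itgam, with 1.03; just below it were Csf1r, with 0.830, and Irf8, with 0.722.

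**Figure D1:**
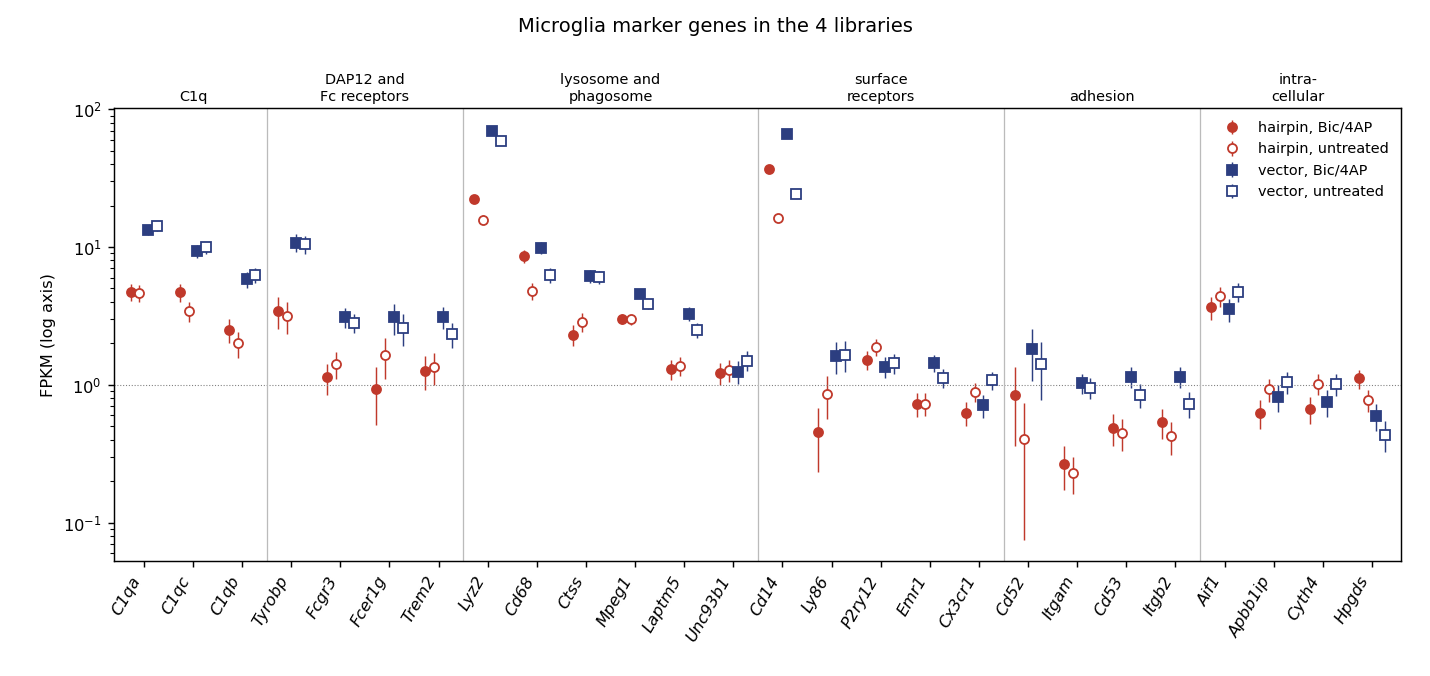
FPKM (log axis) of the 26 members that reached an FPKM of 1, grouped by role, in the 4 libraries; bars are the authors' lower and upper bounds and the dotted line is an FPKM of 1. C1qa, for example, stands at 4.72 and 4.66 in the hairpin cultures with and without Bic/4AP, against 13.3 and 14.2 in the vector cultures with and without it, while Aif1 stands between 3.53 and 4.73 in all 4.

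The C1q chains were lower with the hairpin in every pair of cultures. C1qa, which lies at chr4:136451831-136454759 on mm9 next to the other C1q genes, had 4.72 FPKM in the hairpin culture with Bic/4AP and 4.66 in the untreated hairpin culture, against 13.3 in the vector culture with Bic/4AP and 14.2 in the untreated vector culture. C1qb (chr4:136436061-136442092) had 2.52 and 2.0 FPKM in the hairpin cultures with and without Bic/4AP, against 5.82 and 6.26 in the vector cultures with and without it. C1qc (chr4:136445717-136448829) had 4.68 and 3.41 FPKM in the hairpin cultures with and without Bic/4AP, against 9.34 and 9.92 in the vector cultures with and without it. For all 3 chains both hairpin values lay below both vector values, and the authors' bounds did not overlap between hairpin and vector in either state. The ratios of hairpin to vector were 0.355 for C1qa, 0.433 for C1qb and 0.501 for C1qc with Bic/4AP, and 0.327, 0.319 and 0.344 in the same order untreated.

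The 3 chains kept similar proportions to each other except in 1 library. C1qc stood at 0.733 of C1qa in the untreated hairpin culture, against 0.697 in the untreated vector culture and 0.702 in the vector culture with Bic/4AP, but at 0.991 of C1qa in the hairpin culture with Bic/4AP. The proportion of C1qb to C1qa was 0.533 in that library, and lay between 0.429 and 0.440 in the other 3. On the log2(FPKM + 1) scale all 3 chains passed the 2-fold call untreated, at -1.43 for C1qa, -1.31 for C1qc and -1.28 for C1qb. With Bic/4AP, C1qa passed it at -1.32, while C1qb stood at -0.95 and C1qc at -0.87.

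Other complement genes were closer to 0 as a list. Of 21 further complement components, receptors and regulators, 13 reached an FPKM of 1, with a median difference of -0.11 with Bic/4AP and -0.17 untreated. Lowest were C3, the central component of the cascade, at 67.1 and 63.0 FPKM in the hairpin cultures with and without Bic/4AP, against 143.7 and 105.9 in the vector cultures with and without it, and C1s, a protease of the C1 complex. C1s had 5.18 and 4.79 FPKM in the hairpin cultures with and without Bic/4AP, against 10.2 and 8.46 in the vector cultures with and without it. C3 is also made by other cells of such cultures, astrocytes included. At the upper end stood Cd55, a membrane inhibitor of complement, with differences of 0.50 with Bic/4AP and 0.88 untreated.

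Tyrobp, the DAP12 adaptor (chr7:31198807-31202598 on mm9), was among the lowest of all members. It had 3.44 FPKM in the hairpin culture with Bic/4AP and 3.17 in the untreated hairpin culture, against 10.8 in the vector culture with Bic/4AP and 10.5 in the untreated vector culture. The ratios were 0.320 with Bic/4AP, within 0.205 to 0.475 by the authors' bounds, and 0.302 untreated, within 0.193 to 0.448. Its bounds overlapped with and without Bic/4AP, at ratios of treated to untreated of 1.09 with the hairpin and 1.03 with the vector.

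Receptors and adaptors that work with DAP12 or the gamma chain were lower too, by less when untreated. Trem2, a lipid-sensing receptor that signals through DAP12, had 1.27 and 1.34 FPKM in the hairpin cultures with and without Bic/4AP, against 3.09 and 2.33 in the vector cultures with and without it. Fcgr3, a low-affinity receptor for IgG, had 1.13 and 1.41 FPKM in the hairpin cultures with and without Bic/4AP, against 3.09 and 2.83 in the vector cultures with and without it. For both genes the bounds of hairpin and vector did not overlap in either state. Fcer1g had 0.931 FPKM in the hairpin culture with Bic/4AP and 1.64 in the untreated hairpin culture, against 3.08 in the vector culture with Bic/4AP and 2.59 in the untreated vector culture. Its bounds overlapped between hairpin and vector untreated, at a ratio of 0.633, and did not overlap with Bic/4AP, at 0.302. Siglech, another DAP12 partner, was highest at 0.0581 FPKM and too low to compare.

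Other cells also use several of the further genes listed around DAP12 signalling, which include kinases, adaptors and more receptors. These genes stood on both sides of 0 where they reached an FPKM of 1. Of 24 such genes 6 did so, with medians of -0.05 with Bic/4AP and 0.02 untreated, the untreated one of the other sign under median-ratio scaling. Of all 23 in the rows, most of them at low levels, 18 were lower with the hairpin with Bic/4AP, 14 untreated and 12 in both. Of all genes compared, each of which reached an FPKM of 1, 43.6% were lower with Bic/4AP, 41.2% untreated and 31.8% in both. The median ratio over those of the 23 with a ratio was 0.797 with Bic/4AP and 0.832 untreated. Fcgr2b, the inhibitory IgG receptor, was lowest, at -0.37 with Bic/4AP and -0.61 untreated, and Lcp2, the adaptor SLP-76, was highest, at 0.57 with Bic/4AP and 0.53 untreated. Lcp2 had 1.04 and 1.20 FPKM in the hairpin cultures with and without Bic/4AP, against 0.374 and 0.528 in the vector cultures with and without it, so it reached an FPKM of 1 only through hairpin libraries.

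Lyz2, the lysozyme of macrophages (chr10:116714597-116719328 on mm9), had the highest level of the set in both vector cultures and the lowest difference in both states. It had 22.5 FPKM in the hairpin culture with Bic/4AP and 15.8 in the untreated hairpin culture, against 69.4 in the vector culture with Bic/4AP and 58.4 in the untreated vector culture. The differences were -1.59 with Bic/4AP and -1.82 untreated, and the ratios 0.324 with Bic/4AP and 0.271 untreated. Lyz1, its near-identical neighbour on the same chromosome, had 2.03 and 1.79 FPKM in the hairpin cultures with and without Bic/4AP, against 6.08 and 4.71 in the vector cultures with and without it. Reads that fit both lysozyme genes may be split between them, so the level of each is uncertain, while both point the same way.

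Among the other lysosomal and phagosomal markers, Ctss, Laptm5 and Mpeg1 were lower with bounds apart in both states, and Cd68 and Unc93b1 were not. Ctss, the protease cathepsin S, had 2.31 and 2.87 FPKM in the hairpin cultures with and without Bic/4AP, against 6.15 and 6.06 in the vector cultures with and without it. Laptm5, a lysosomal membrane protein of blood-derived cells, had 1.30 and 1.38 FPKM in the hairpin cultures with and without Bic/4AP, against 3.28 and 2.49 in the vector cultures with and without it. Mpeg1, a pore-forming protein of the macrophage phagosome, was closer, at 2.99 and 2.98 FPKM in the hairpin cultures with and without Bic/4AP, against 4.57 and 3.85 in the vector cultures with and without it. In all 3, both hairpin values lay below both vector values. Ctss passed the 2-fold call with Bic/4AP at -1.11 and stood at -0.87 untreated.

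Cd68, a late endosomal and lysosomal glycoprotein, was higher with Bic/4AP in both backgrounds. It had 8.63 FPKM in the hairpin culture with Bic/4AP and 4.81 in the untreated hairpin culture, against 9.88 in the vector culture with Bic/4AP and 6.25 in the untreated vector culture. Its ratios of hairpin to vector were 0.873 with Bic/4AP and 0.769 untreated, with overlapping bounds in both. Unc93b1, which carries nucleic acid-sensing Toll-like receptors to endosomes, had 1.22 and 1.28 FPKM in the hairpin cultures with and without Bic/4AP, against 1.25 and 1.5 in the vector cultures with and without it. Its bounds overlapped in every pair. General lysosome genes, used by all cells, were near 0 as a list: 23 of 23 were measured, with medians of -0.00 with Bic/4AP and 0.05 untreated (below 0 under median-ratio scaling), and Lamp2 the lowest, at -0.49 with Bic/4AP and -0.34 untreated.

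The surface receptors divided. P2ry12, the purine receptor that marks resting microglia, was not lower: it had 1.52 FPKM in the hairpin culture with Bic/4AP and 1.88 in the untreated hairpin culture, against 1.35 in the vector culture with Bic/4AP and 1.43 in the untreated vector culture. Its ratios were 1.12 with Bic/4AP and 1.31 untreated, with overlapping bounds in both. P2ry12 (chr3:59020193-59066753 on mm9) lies inside the locus of another gene, Med12l (chr3:58810900-59122334), and nothing in the labels says that strand was used in counting. Med12l had 2.29 and 2.50 FPKM in the hairpin cultures with and without Bic/4AP, against 2.24 and 2.79 in the vector cultures with and without it, and its part in the P2ry12 values was not tested. P2ry12 was the only one of the 26 members to overlap another gene of the rows.

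Cx3cr1, the receptor for the neuronal chemokine fractalkine, had 0.623 and 0.889 FPKM in the hairpin cultures with and without Bic/4AP, against 0.713 and 1.08 in the vector cultures with and without it. Hairpin and vector overlapped for it in both states, at ratios of 0.874 with Bic/4AP and 0.824 untreated. Csf1r, the receptor that microglia need to survive, stayed below an FPKM of 1 but was lower with the hairpin with bounds apart: 0.357 and 0.444 FPKM in the hairpin cultures with and without Bic/4AP, against 0.830 and 0.825 in the vector cultures with and without it. Emr1, the macrophage antigen F4/80, had 0.723 and 0.728 FPKM in the hairpin cultures with and without Bic/4AP, against 1.45 and 1.13 in the vector cultures with and without it. Ly86, a partner of a Toll-like receptor homologue, had 0.453 and 0.863 FPKM in the hairpin cultures with and without Bic/4AP, against 1.62 and 1.65 in the vector cultures with and without it. Emr1 and Ly86 were lower with bounds apart in both states, but passed the level of 1 only through vector libraries.

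Cd14, the co-receptor for bacterial lipopolysaccharide, was the member that differed most with Bic/4AP and its levels are given with that treatment. Between hairpin and vector its ratios were 0.551 with Bic/4AP and 0.670 untreated, and its bounds were apart in both states. Gpr34, a lysophospholipid receptor, reached 0.400 FPKM at most and lies within the locus of Cask. Csf3r, the receptor for a granulocyte growth factor, reached 0.107 and Tmem119, a marker of mature microglia, 0.135.

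The integrins and other leukocyte surface proteins were low in all 4 libraries and lower with the hairpin. Itgam, the alpha chain of complement receptor 3, had 0.265 and 0.230 FPKM in the hairpin cultures with and without Bic/4AP, against 1.03 and 0.955 in the vector cultures with and without it. Its ratios of 0.257 with Bic/4AP and 0.240 untreated were the lowest of the 26 in either state, and its log2(FPKM + 1) differences were only -0.68 and -0.67, because the added 1 outweighs such levels. Itgb2, the beta chain that pairs with it, had 0.533 and 0.424 FPKM in the hairpin cultures with and without Bic/4AP, against 1.15 and 0.728 in the vector cultures with and without it. Both chains had bounds apart in both states. Cd53, a tetraspanin of leukocytes, had 0.488 and 0.450 FPKM in the hairpin cultures with and without Bic/4AP, against 1.15 and 0.850 in the vector cultures with and without it. Cd52, a short surface glycopeptide, had 0.848 and 0.404 FPKM in the hairpin cultures with and without Bic/4AP, against 1.81 and 1.41 in the vector cultures with and without it. Cd53 had bounds apart in both states and Cd52 untreated alone; the Cd52 bounds imply 12 and 6 fragments in the hairpin cultures with and without Bic/4AP, against 24 and 20 in the vector cultures with and without it. Itgam, Itgb2, Cd53 and Cd52 passed the level of 1 only through vector libraries. Ptprc, the leukocyte antigen CD45, reached 0.384 FPKM and Selplg, a selectin ligand, 0.158. Bounds of hairpin and vector overlapped for Ptprc and Selplg in both states. Their ratios were 0.910 and 0.380 in that order with Bic/4AP, and 0.749 and 0.690 untreated.

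None of the 4 intracellular markers was lower with the hairpin with bounds apart. Aif1, the actin-binding protein IBA1 that is the usual microglial stain, had 3.66 FPKM in the hairpin culture with Bic/4AP and 4.41 in the untreated hairpin culture, against 3.53 in the vector culture with Bic/4AP and 4.73 in the untreated vector culture. The hairpin and vector values interleave, with ratios of 1.04 with Bic/4AP, within 0.706 to 1.53, and 0.932 untreated, within 0.670 to 1.30. Those ranges lie above the ranges of C1qa, 0.279 to 0.444 with Bic/4AP and 0.260 to 0.407 untreated, and of Tyrobp. Cyth4, a nucleotide exchange factor of ARF proteins, had 0.670 and 1.02 FPKM in the hairpin cultures with and without Bic/4AP, against 0.75 and 1.02 in the vector cultures with and without it. Apbb1ip, a Rap1 effector that activates integrins, had 0.625 and 0.931 FPKM in the hairpin cultures with and without Bic/4AP, against 0.811 and 1.04 in the vector cultures with and without it. Bounds of hairpin and vector overlapped for both genes in both states.

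Hpgds, the blood-cell prostaglandin D synthase, was the 1 member of the 26 that was higher with the hairpin with bounds apart. It had 1.11 FPKM in the hairpin culture with Bic/4AP and 0.777 in the untreated hairpin culture, against 0.593 in the vector culture with Bic/4AP and 0.435 in the untreated vector culture. The ratios were 1.87 with Bic/4AP and 1.79 untreated. Of the 2 transcription factors, Irf8 had 0.581 and 0.722 FPKM in the hairpin cultures with and without Bic/4AP, against 0.499 and 0.625 in the vector cultures with and without it. Spi1 was not among the rows; a row under its older symbol Sfpi1, which the rule does not take, had 0.243 and 0.161 FPKM in the hairpin cultures with and without Bic/4AP, against 0.300 and 0.540 in the vector cultures with and without it.

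**Figure D2:**
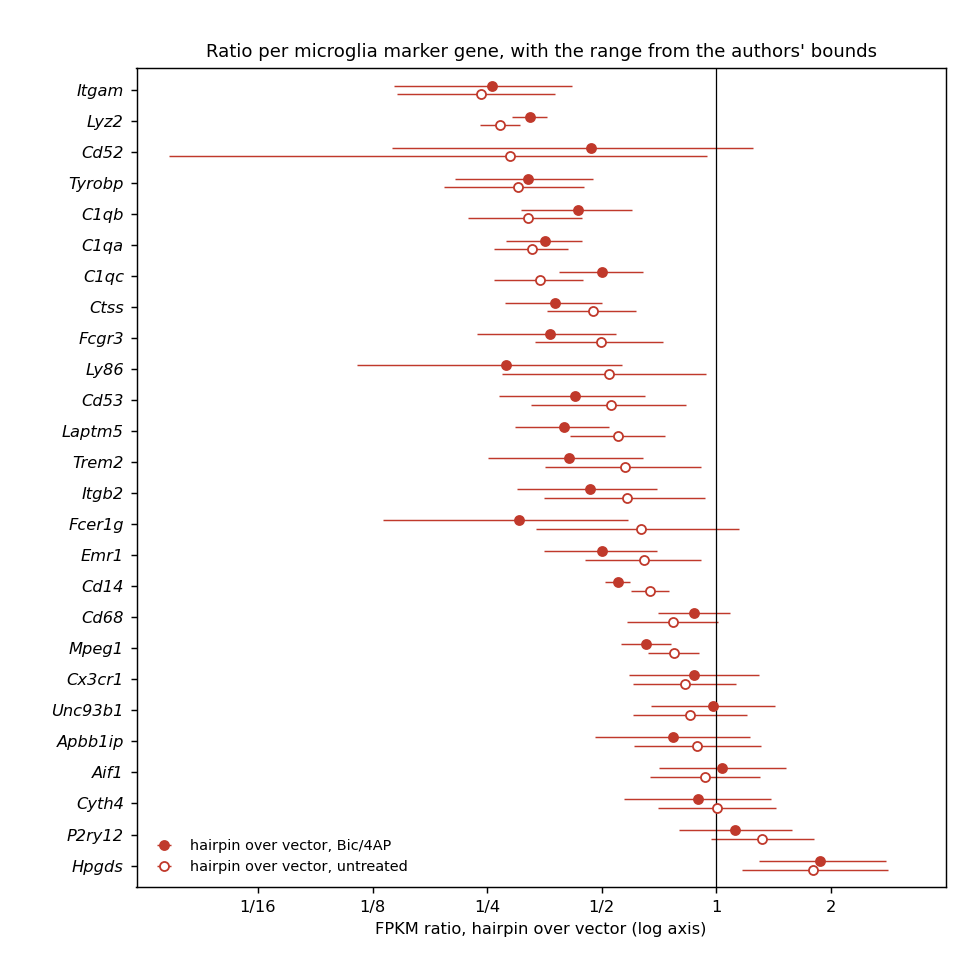
Ratio of FPKM, hairpin over vector (log axis), with Bic/4AP and untreated, for the 26 members that reached an FPKM of 1, sorted by the untreated ratio; lines run over the range that the authors' bounds allow. Most lie left of 1, down to 0.240 for Itgam untreated, while Aif1, Cyth4 and P2ry12 lie at 1 within their ranges and Hpgds lies to the right at 1.87 with Bic/4AP and 1.79 untreated.

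The markers thus did not all differ alike. Of the 26 members that reached an FPKM of 1, 16 were lower with the hairpin with bounds apart in both states, where 14.6% of all genes compared were. Of these 16, 5 (Itgam, Itgb2, Cd53, Emr1 and Ly86) reached that level only in vector libraries. Among the 15 members that held it in all 4 libraries, 11 were lower with bounds apart with Bic/4AP, where 21.4% of the 12650 genes that held it were, and 11 untreated, where 22.6% were. The same 11 (Tyrobp, C1qa, C1qb, C1qc, Lyz2, Ctss, Trem2, Cd14, Laptm5, Fcgr3 and Mpeg1) were lower in both states, where 15.1% of those genes were. Over the 26, a further pair, Fcer1g and Cd52, were so in 1 state. With Bic/4AP, 17 of the 26 were lower with bounds apart, where 20.9% of all genes were, and 1 was higher, where 28.2% were. Untreated, 17 were lower, where 22% of all genes were, and 1 was higher, where 32.8% were. Bounds overlapped in both states for 7, namely Aif1, P2ry12, Cx3cr1, Cd68, Cyth4, Unc93b1 and Apbb1ip. As a description of these 4 libraries, the members' log2 ratios in the 2 states had a Pearson's r of 0.84 and a Spearman's rho of 0.82 over the 26 members, and 0.87 and 0.89 over the 15 at 1 or more in all 4 libraries. The 2 ratios share no library, and r over all genes at that level was 0.79.

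The 2-fold call found fewer. With Bic/4AP 5 members were 2-fold lower (Lyz2, Tyrobp, C1qa, Ctss and Fcer1g), where 0.528% of all genes compared were, and none was 2-fold higher, where 0.186% were. Untreated, 5 members were 2-fold lower (Lyz2, Tyrobp, C1qa, C1qc and C1qb), where 0.661% of all genes were, and none was 2-fold higher, where 0.409% were. Lyz2, Tyrobp and C1qa were 2-fold lower in both states. They are 3 of 51 genes that were so, which is 0.379% of the genes compared; the 3 make up 5.88% of those 51 and 11.5% of the 26 members. The call depends on the added 1: with 0.1 in its place it takes 13 members with Bic/4AP and 8 untreated, and with 5 it takes 1 in each.

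**Figure D3:**
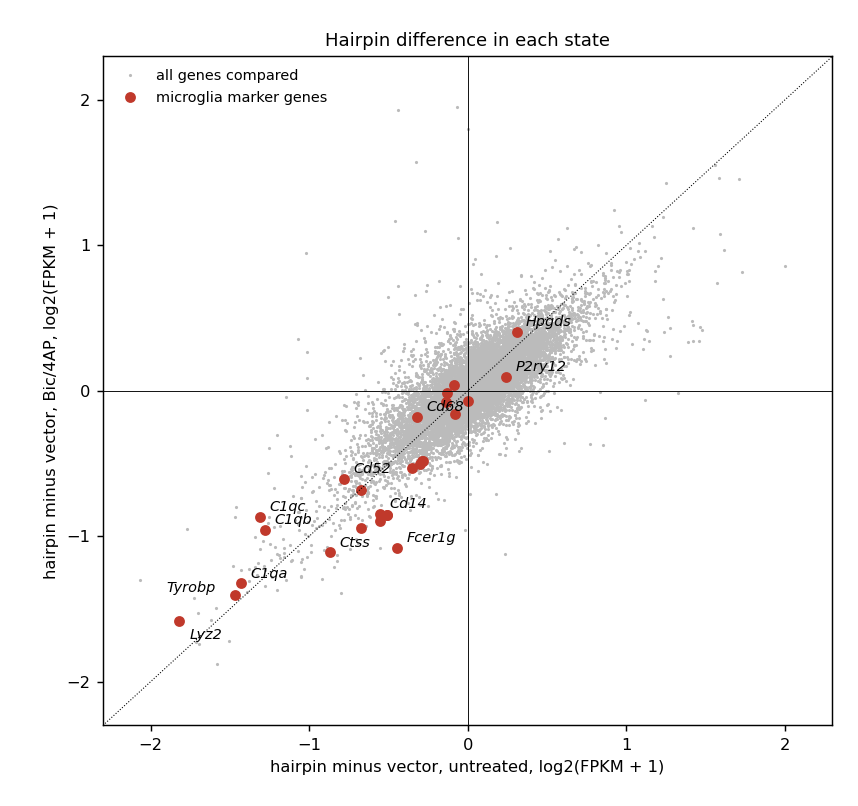
Difference of hairpin minus vector in log2(FPKM + 1), untreated on the x axis and with Bic/4AP on the y axis, for the 26 members (red) among all 13458 genes compared (grey); genes beyond the axes are not drawn. Lyz2, Tyrobp and C1qa lie at the lower left below -1 on both axes, and P2ry12 and Hpgds lie above 0 on both.

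Bounds with and without Bic/4AP overlapped for 19 of the 26 markers in each background. Many members are low and have wide bounds, so an overlap does not show that a marker did not respond. Over all 34 measured members, 17 were lower with Bic/4AP in hairpin cultures and 16 in vector cultures. Among the 26 that reached an FPKM of 1, 13 were lower in hairpin cultures and 10 in vector cultures. Of all genes compared, which reached that level too, 65.2% were lower in hairpin cultures and 59.4% in vector cultures. In hairpin cultures, 5 of the 26 members were higher with bounds apart (Cd14, Cd68, Lyz2, Hpgds and C1qc), where 16.9% of all genes compared were, and 2 were lower (Cx3cr1 and Cyth4), where 37.3% were. In vector cultures 6 were higher (Cd14, Cd68, Lyz2, Itgb2, Laptm5 and Mpeg1), where 21.5% of all genes were, and 1 was lower (Cx3cr1), where 36.4% were. No member was 2-fold lower with Bic/4AP in either background, where 0.156% of all genes were in hairpin cultures and 0.267% in vector cultures. The median difference of the 26 was -0.00 in hairpin cultures (above 0 under 2 other scalings) and 0.08 in vector cultures, against -0.08 in hairpin cultures and -0.07 in vector cultures over all genes.

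Cd14 was the only member 2-fold higher with Bic/4AP, and it was so in both backgrounds, where 2.06% of all genes compared were in hairpin cultures and 2.18% in vector cultures. It had 36.6 FPKM in the hairpin culture with Bic/4AP against 16.2 in the untreated hairpin culture, a ratio of 2.26, within 2.04 to 2.51. In vector cultures it had 66.4 FPKM with Bic/4AP against 24.1 untreated, a ratio of 2.75, within 2.53 to 3.00. Both treated values lie above both untreated ones, and in each state the hairpin value is below the vector value. Cd68 had ratios of treated to untreated of 1.79 with the hairpin and 1.58 with the vector, and Lyz2 of 1.42 with the hairpin and 1.19 with the vector. Cx3cr1 had 0.700 with the hairpin and 0.661 with the vector.

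No member had a difference between its 2 responses of 1 or more on the log2(FPKM + 1) scale, where 0.238% of all genes compared did. The difference was widest for Fcer1g, at -0.63, whose ratio of treated to untreated was 0.568 with the hairpin and 1.19 with the vector, both with overlapping bounds. Next was C1qc, at 0.44, with a ratio of 1.37 with the hairpin and 0.942 with the vector.

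**Figure D4:**
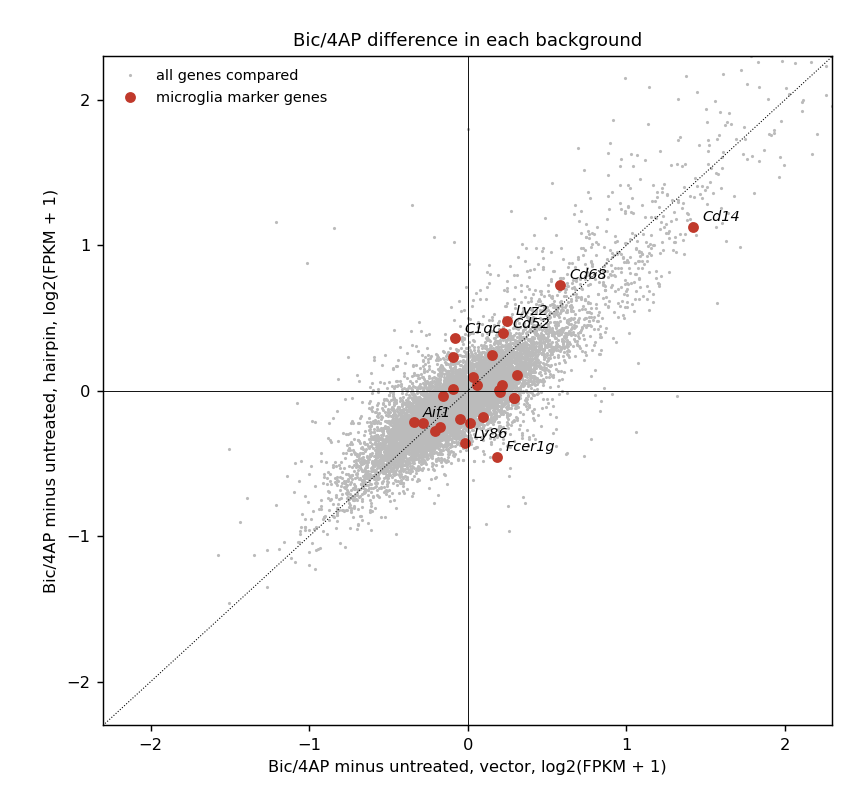
Difference of Bic/4AP minus untreated in log2(FPKM + 1), in vector cultures on the x axis and hairpin cultures on the y axis, for the 26 members (red) among all 13458 genes compared (grey); genes beyond the axes are not drawn. Cd14 lies at 1.13 in hairpin and 1.42 in vector cultures, apart from the other members, most of which lie near 0 on both axes.

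Genes that microglia share with other myeloid cells, taken from a list of 62, were less low than the markers. Of these, 21 reached an FPKM of 1. Their medians were -0.18 with Bic/4AP (above 0 for those that reached an FPKM of 5) and -0.22 untreated. Of the 61 in the rows, 46 were lower with Bic/4AP, where 43.6% of all genes compared were, and 49 untreated, where 41.2% were. Of the 21, at the level that all genes compared reached, 13 were lower with Bic/4AP and 15 untreated. Ccl6, a chemokine of myeloid cells, was lowest in both states: it had 0.738 and 0.621 FPKM in the hairpin cultures with and without Bic/4AP, against 4.17 and 3.98 in the vector cultures with and without it. Msr1, a scavenger receptor, had 0.464 and 0.255 FPKM in the hairpin cultures with and without Bic/4AP, against 1.43 and 1.15 in the vector cultures with and without it. Lgals3, a galectin that other glia also make, was at the upper end, with differences of 0.70 with Bic/4AP and 0.42 untreated. Lst1 was higher by 0.72 with Bic/4AP and Sall1, a transcription factor that neural progenitors also use, by 0.29 untreated.

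Genes of activated microglia divided in the same way. Of 18 listed, 15 reached an FPKM of 1, with medians of -0.22 with Bic/4AP and -0.20 untreated. Ccl6 and Spp1 were 2-fold lower in both states, where 0.379% of all genes compared were. Spp1, the secreted protein osteopontin, had 4.16 and 3.80 FPKM in the hairpin cultures with and without Bic/4AP, against 12.3 and 10.1 in the vector cultures with and without it. Cytokines and mediators that microglia can release were instead higher with Bic/4AP. Of 11 that reached an FPKM of 1, 8 were 2-fold higher in hairpin cultures, where 2.06% of all genes compared were. In vector cultures 8 of the 11 were, where 2.18% of all genes were. Their medians were 2.71 in hairpin cultures and 3.22 in vector cultures. The filter favours this direction: only 5 of the 11 held an FPKM of 1 in all 4 libraries. Cxcl2, for example, reached it only with Bic/4AP. Ccl2, a chemokine for monocytes, held it in all 4. It had 95.9 FPKM in the hairpin culture with Bic/4AP against 6.92 in the untreated hairpin culture. In vector cultures it had 63.9 FPKM with Bic/4AP against 4.12 untreated. Neurons and astrocytes make several of these cytokines too. Il1b and Tnf, typical of activated microglia, stayed below an FPKM of 1 in all 4 libraries, at most 0.161 for Il1b and 0.096 for Tnf.

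The label was checked against markers of other blood-derived cells. None of 10 monocyte and neutrophil markers reached an FPKM of 1: their sums were 1.20 and 0.942 in the hairpin cultures with and without Bic/4AP, against 0.826 and 0.626 in the vector cultures with and without it, and S100a9 and Retnlg were listed at 0 in all 4. None of 11 lymphocyte markers in the rows did so either, with sums between 0.197 and 0.337, and Cd3g and Ncr1 were listed at 0 in all 4. Markers of border macrophages, the macrophages of the meninges and vessels, were mostly lower with the hairpin as well. Of 10 such markers 8 were lower with Bic/4AP, 8 untreated and 7 in both, against 43.6%, 41.2% and 31.8% of all genes compared. Those genes all reached an FPKM of 1, as 2 of the 10 markers did. Their median ratios were 0.580 with Bic/4AP and 0.711 untreated. Their summed FPKM was 4.62 and 4.11 in the hairpin cultures with and without Bic/4AP, against 6.63 and 5.27 in the vector cultures with and without it.

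Mrc1, the mannose receptor CD206, had 0.298 and 0.240 FPKM in the hairpin cultures with and without Bic/4AP, against 0.803 and 0.629 in the vector cultures with and without it. Stab1, a scavenger receptor, had 0.326 and 0.275 FPKM in the hairpin cultures with and without Bic/4AP, against 0.684 and 0.584 in the vector cultures with and without it. Both were lower with bounds apart in both states. An FPKM of 1 was reached by 2 of the 10, F13a1 only in hairpin libraries and Ms4a7 only in vector libraries, so the filter fixed their directions. F13a1 had 1.48 and 1.26 FPKM in the hairpin cultures with and without Bic/4AP, against 0.575 and 0.495 in the vector cultures with and without it, and Ms4a7 had 0.532 and 0.563 in those hairpin cultures, against 1.73 and 1.22 in those vector cultures. The part of border macrophages in the differences was not tested. Of 14 defining markers of microglia, all of them among the 35 members, 9 reached an FPKM of 1, and Tmem119, Siglech, Gpr34, Csf1r and Spi1 did not. The medians of the 9 were -0.85 with Bic/4AP and -0.67 untreated, but Itgam and Cx3cr1 entered only through a vector library. For the 7 at 1 or more in all 4 libraries the medians were -0.87 with Bic/4AP and -1.28 untreated.

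Genes through which other cells support microglia stood on both sides of 0. Of 20 such ligands and receptors, 17 reached an FPKM of 1, with medians of 0.02 with Bic/4AP (below 0 under median-ratio scaling) and -0.04 untreated. With Bic/4AP, bounds were apart for 8 of the 17. Of the 17, 4 were higher with the hairpin, where 28.2% of all genes compared were, and 4 lower, where 20.9% were. Untreated, bounds were apart for 13 of the 17. Of the 17, 7 were then higher, where 32.8% of all genes were, and 6 lower, where 22% were. Apoe, a lipid carrier made in quantity by astrocytes, was lowest, at 2019 and 1901 FPKM in the hairpin cultures with and without Bic/4AP, against 3321 and 2873 in the vector cultures with and without it. Il34, a ligand of the receptor encoded by Csf1r, had 8.53 and 9.24 FPKM in the hairpin cultures with and without Bic/4AP, against 7.87 and 11.8 in the vector cultures with and without it, so the 2 states differ in direction for it.

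Other lists differed between hairpin and vector beside the microglial one. Astrocyte markers had medians of -0.02 with Bic/4AP and 0.01 untreated, with signs that depended on filter and scaling, and neuron markers of -0.01 with Bic/4AP and -0.19 untreated. Oligodendrocyte lineage markers stood at -0.44 with Bic/4AP and -0.38 untreated, and inhibitory neuron markers stood at -0.21 with Bic/4AP and -0.45 untreated. The microglial medians were -0.64 with Bic/4AP and -0.48 untreated over the 26 members that reached an FPKM of 1, against 0.03 with Bic/4AP and 0.05 untreated over all genes. Of these 26, 8 entered only through vector libraries; over the 15 members at 1 or more in all 4 libraries the medians were -0.87 with Bic/4AP and -0.56 untreated. With the other lists held to that level too, oligodendrocyte lineage markers stood at -0.43 with Bic/4AP and -0.28 untreated and other myeloid genes at -0.12 with Bic/4AP and -0.11 untreated. Fibroblast and meningeal markers stood at -0.32 with Bic/4AP and -0.24 untreated, and endothelial and mural markers, 4 of 15 of them at an FPKM of 1, at -0.44 with Bic/4AP and -0.16 untreated.

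In the opposite direction stood interferon-stimulated genes, with medians of 0.30 with Bic/4AP and 0.92 untreated. Of these, 14 of 30 were 2-fold higher untreated, where 0.409% of all genes compared were. Proliferation genes had medians of 0.54 with Bic/4AP and 0.73 untreated, and genes of antigen presentation 0.06 with Bic/4AP and 0.39 untreated. No list of genes outside the members had a median below that of the 26 in either state, though with another added value or no filter 1 or 2 lists did untreated. None did among genes at 1 or more in all 4 libraries, where inhibitory neuron markers, at -0.45, were lowest untreated and endothelial and mural markers, at -0.44, with Bic/4AP. The part of these lists, or of the make-up of the cultures, in the microglial differences was not tested.

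**Figure D5:**
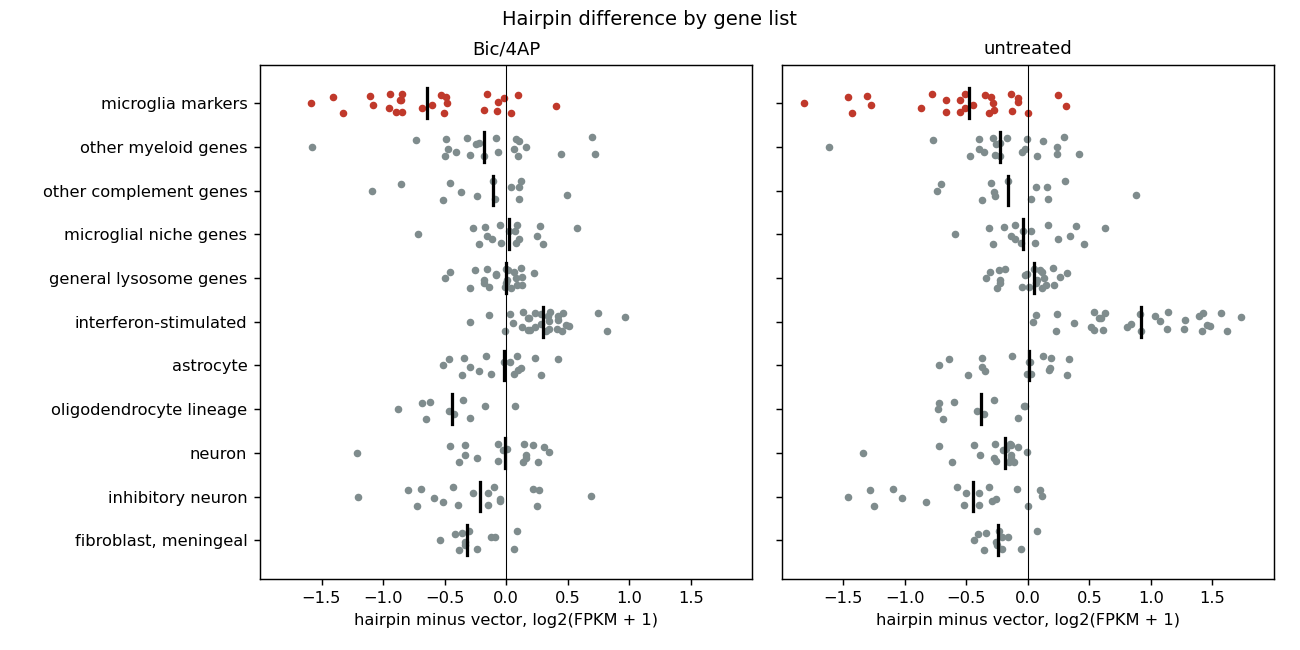
Difference of hairpin minus vector in log2(FPKM + 1) with Bic/4AP (left) and untreated (right) for the genes of each list that reached an FPKM of 1 (points) and their median (black bar); 8 of the 26 microglia points entered only through vector libraries. With Bic/4AP the median of the microglia markers lies at -0.64, beside -0.18 for other myeloid genes, -0.02 for astrocyte markers and -0.44 for oligodendrocyte lineage markers; untreated these lie at -0.48, -0.22, 0.01 and -0.38.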

How the data were processed

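The 4 RNA-seq libraries came from poly(A)-selected RNA prepared with the Illumina TruSeq kit, per the labels. Per the submitters' processing notes, the tools were CASAVA 1.8, TopHat2 2.0.8b and Cufflinks 2.0.2 and the build was mm9; how they were set is not given in the sources used here. The deposited tables hold FPKM per gene, with lower and upper bounds, computed by the authors; read numbers were not given, so depth is unknown beyond those bounds. Whether strand was used in counting is not stated.

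Here FPKM was summed per symbol, leaving out 731 symbols of small RNAs and 42 whose estimate failed in a library, and genes that reached an FPKM of 1 in any library were compared in log2(FPKM + 1), with Python 3.11.15, pandas 2.3.3 and numpy 2.4.6. No p-value was computed, since each condition has 1 library. The calculation was tested on simulated data. All 35 members are accounted for; of the other 20 lists, the 2 highest and 2 lowest measured genes per state could be named, and Il1b, Tnf, Mrc1, Stab1, Med12l, Cask and the genes listed at 0, outside that rule, were named after their values were seen. The members and lists were chosen with earlier results of these data known. Other added values, filters, scalings and row choices were tried.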

Additional observations from a re-analysis of the deposited data

Results flagged for a closer look

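For C1qc and Laptm5 the response to Bic/4AP had opposite signs in hairpin and vector cultures, with the authors' bounds apart in 1 of the 2 backgrounds. C1qc had 4.68 FPKM with Bic/4AP against 3.41 untreated in hairpin cultures, and 9.34 with Bic/4AP against 9.92 untreated in vector cultures, a difference of the responses of 0.442 in log2(FPKM + 1). Laptm5 had 1.30 FPKM with Bic/4AP against 1.38 untreated in hairpin cultures, and 3.28 with Bic/4AP against 2.49 untreated in vector cultures, a difference of the responses of -0.340; under median-ratio scaling its response in hairpin cultures also lay above 0. With 1 library per condition neither difference was tested.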

How the results depend on the processing

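No called value changed sign under the settings tried. Of the single members' differences 9, all near 0, took the other sign under another scaling, as did the medians named in the report, and 201 of 216 summary values were within the limits set for a change (1.5 times for a count). An added value of 0.1 in place of 1 took 13 members as 2-fold lower with Bic/4AP and 8 untreated, against 5 and 5. An added value of 5 took 1 and 1, 0 members as 2-fold higher with Bic/4AP in hairpin cultures, against 1, gave a median of -0.24 for hairpin minus vector with Bic/4AP, and put 2 other lists below the members untreated; without a filter 1 list lay below them. Under a filter of FPKM 5 in 1 library, 8 members were left. Their medians were -1.03 for hairpin minus vector with Bic/4AP, -1.29 untreated, 0.30 for Bic/4AP minus untreated in hairpin cultures and 0.12 for the difference of the responses, and 8 were lower in both states, against 22 of the 26. The median ratio of hairpin to vector untreated was then 0.336. When every library had to reach an FPKM of 1, a setting added after the data were seen, 13 of 15 were lower in both states. No paired analysis was possible because each condition has 1 library. The absence of replicates limits every difference here: the bounds cover counting alone, and members with few fragments, such as Cd52, Tmem119 and Siglech, say little.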
